A study of Mus musculus with 10 samples.

Results

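The proneural basic helix-loop-helix (bHLH) genes examined were *Neurog1*, *Neurog2*, *Neurog3*, *Atoh1*, *Neurod1*, *Neurod2*, *Ptf1a* and *Olig3*. They were chosen by name, as 8 of the 22350 protein-coding genes annotated in mm9 on the 20 chromosomes that held peaks. ChIP-seq had been carried out for Ring1b, Cbx2, Ezh2 and H3K27me3 in J1 mouse embryonic stem cells (ESCs), and for Ring1b and H3K27me3 in neural stem cells (NSCs). Each of the 6 ChIP libraries gave a list of enriched regions called against an input, and the 4 input libraries were not analysed here. J1 ESCs are a mouse ESC line, grown here on feeder fibroblasts in serum with leukemia inhibitory factor, and the feeders were depleted before fixation. The NSCs had been obtained from J1 ESCs by differentiation in culture and were kept on gelatin with EGF and FGF, so they are a culture model and not neural tissue. The labels name no genetic change for any sample and no treatment beyond ordinary culture. There was 1 library per cell type and target, so no value below has a replicate error, no difference was tested, and each statement describes these libraries.

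bHLH proneural factors pair with broadly expressed E proteins, bind E-box motifs and drive progenitors towards neuronal fates, while Notch signalling through HES and HEY repressors holds neighbouring cells back. Several of them also specify cells outside the nervous system, such as pancreatic endocrine cells, inner ear hair cells and secretory cells of the gut. Polycomb group (PcG) proteins keep many developmental regulators of this kind silent in ESCs: Ezh2 is the catalytic subunit of PRC2 and methylates histone H3 at lysine 27, giving H3K27me3, Ring1b is the E3 ligase subunit of PRC1, and Cbx2 is a PRC1 subunit that can bind H3K27me3.

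The upstream sequences below belong to the members with the largest and the smallest share of their surroundings under H3K27me3 peaks in NSCs, *Neurog2* and *Atoh1* at the upper end and *Neurog3* and *Neurod1* at the lower end. *Neurog3*, *Neurod1* and *Olig3* were all at 0, and the 2 with the smaller ESC Ring1b share were taken. Each is the 250 bases before the annotated start site in mm9, 5′ to 3′ on the strand of the gene, with each CpG dinucleotide in capitals. The *Neurog2* stretch is chr3:127335804-127336053 on the plus strand and holds 8 CpGs. The *Atoh1* stretch is chr6:64678890-64679139 on the plus strand and holds 18 CpGs. The *Neurog3* stretch is chr10:61595588-61595837 on the plus strand and also holds 18 CpGs. The *Neurod1* stretch is chr2:79296909-79297158 on the minus strand and holds 14 CpGs. The number of CpGs in these 250 bases did not follow the order of the NSC H3K27me3 shares. In the 1000 bases centred on the start site it was higher at both genes of the upper end than at both genes with a share of 0. There it was 84 at *Neurog2*, 61 at *Atoh1*, 49 at *Neurod1* and 43 at *Neurog3*. This split did not hold once the other members were included, since *Neurod2* had 40 CpGs there and a share of 21.5%. A link between CpGs and peaks was not tested.
Neurog2: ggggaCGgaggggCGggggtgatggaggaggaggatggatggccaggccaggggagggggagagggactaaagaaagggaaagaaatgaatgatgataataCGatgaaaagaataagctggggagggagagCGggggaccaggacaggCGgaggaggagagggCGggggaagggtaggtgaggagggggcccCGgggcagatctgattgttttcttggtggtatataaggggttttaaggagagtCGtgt
Atoh1: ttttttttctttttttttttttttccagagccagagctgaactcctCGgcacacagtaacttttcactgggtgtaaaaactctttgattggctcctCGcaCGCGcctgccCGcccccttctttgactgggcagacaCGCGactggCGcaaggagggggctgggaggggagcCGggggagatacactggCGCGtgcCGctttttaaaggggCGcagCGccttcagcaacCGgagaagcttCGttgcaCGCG
Neurog3: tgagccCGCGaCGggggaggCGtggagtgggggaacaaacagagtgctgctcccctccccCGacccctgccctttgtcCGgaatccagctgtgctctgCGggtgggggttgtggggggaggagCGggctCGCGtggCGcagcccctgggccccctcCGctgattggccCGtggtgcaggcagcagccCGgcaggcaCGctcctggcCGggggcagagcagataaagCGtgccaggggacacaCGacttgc
Neurod1: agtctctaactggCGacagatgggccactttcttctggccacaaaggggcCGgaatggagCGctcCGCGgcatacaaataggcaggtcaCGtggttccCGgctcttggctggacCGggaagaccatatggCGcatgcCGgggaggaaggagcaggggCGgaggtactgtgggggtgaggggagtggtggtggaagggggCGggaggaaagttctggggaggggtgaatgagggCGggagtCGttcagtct

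A start site was taken as the 5′ end of the gene record, and a window as the gene record plus 10 kb on either side. In ESCs the start site of 7 of the 8 members lay in a Ring1b peak, against 7.03% of all protein-coding genes. Ezh2 peaks held 6 of the start sites (2.56% of all genes), H3K27me3 peaks 5 (4.31%) and Cbx2 peaks 4 (1.15%). In NSCs, H3K27me3 peaks held 5 of the 8 start sites (1.77% of all genes) and Ring1b peaks 3 (1.74%). *Neurod1* was the member without a peak of any list.

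Any peak in the window was a looser criterion. By it 7 members had Ring1b in ESCs (11.5% of all genes), 7 had H3K27me3 (9.97%), 6 had Ezh2 (5.28%) and 5 had Cbx2 (3.09%). In NSCs 4 members had Ring1b in the window (4.64%) and 5 had H3K27me3 (4.70%). The windows held 50 peaks in all, 38 in the ESC lists and 12 in the NSC lists, and 30 of the 50 covered a member's start site.

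Start sites of 4 members, *Neurog1*, *Neurog2*, *Neurod2* and *Ptf1a*, lay in peaks of all 4 ESC lists, which held for 0.752% of all genes. *Neurog2* and *Neurod2* were the 2 members with the start site in all 6 lists (0.309% of all genes). Together with *Atoh1*, they made 3 members with the start site in both NSC lists (0.626% of all genes). *Neurog1* and *Ptf1a* shared their set of lists, all but NSC Ring1b, which was found at 31 genes in all. *Atoh1* had its start site in all lists but Cbx2, a set found at 13 genes in all. *Olig3*, with ESC Ring1b and Ezh2 alone, shared its set with 55 genes counting itself, and *Neurog3*, with ESC Ring1b alone, was among 591. *Neurod1* was among the 91.1% of genes with no start-site peak.

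**Figure D1:**
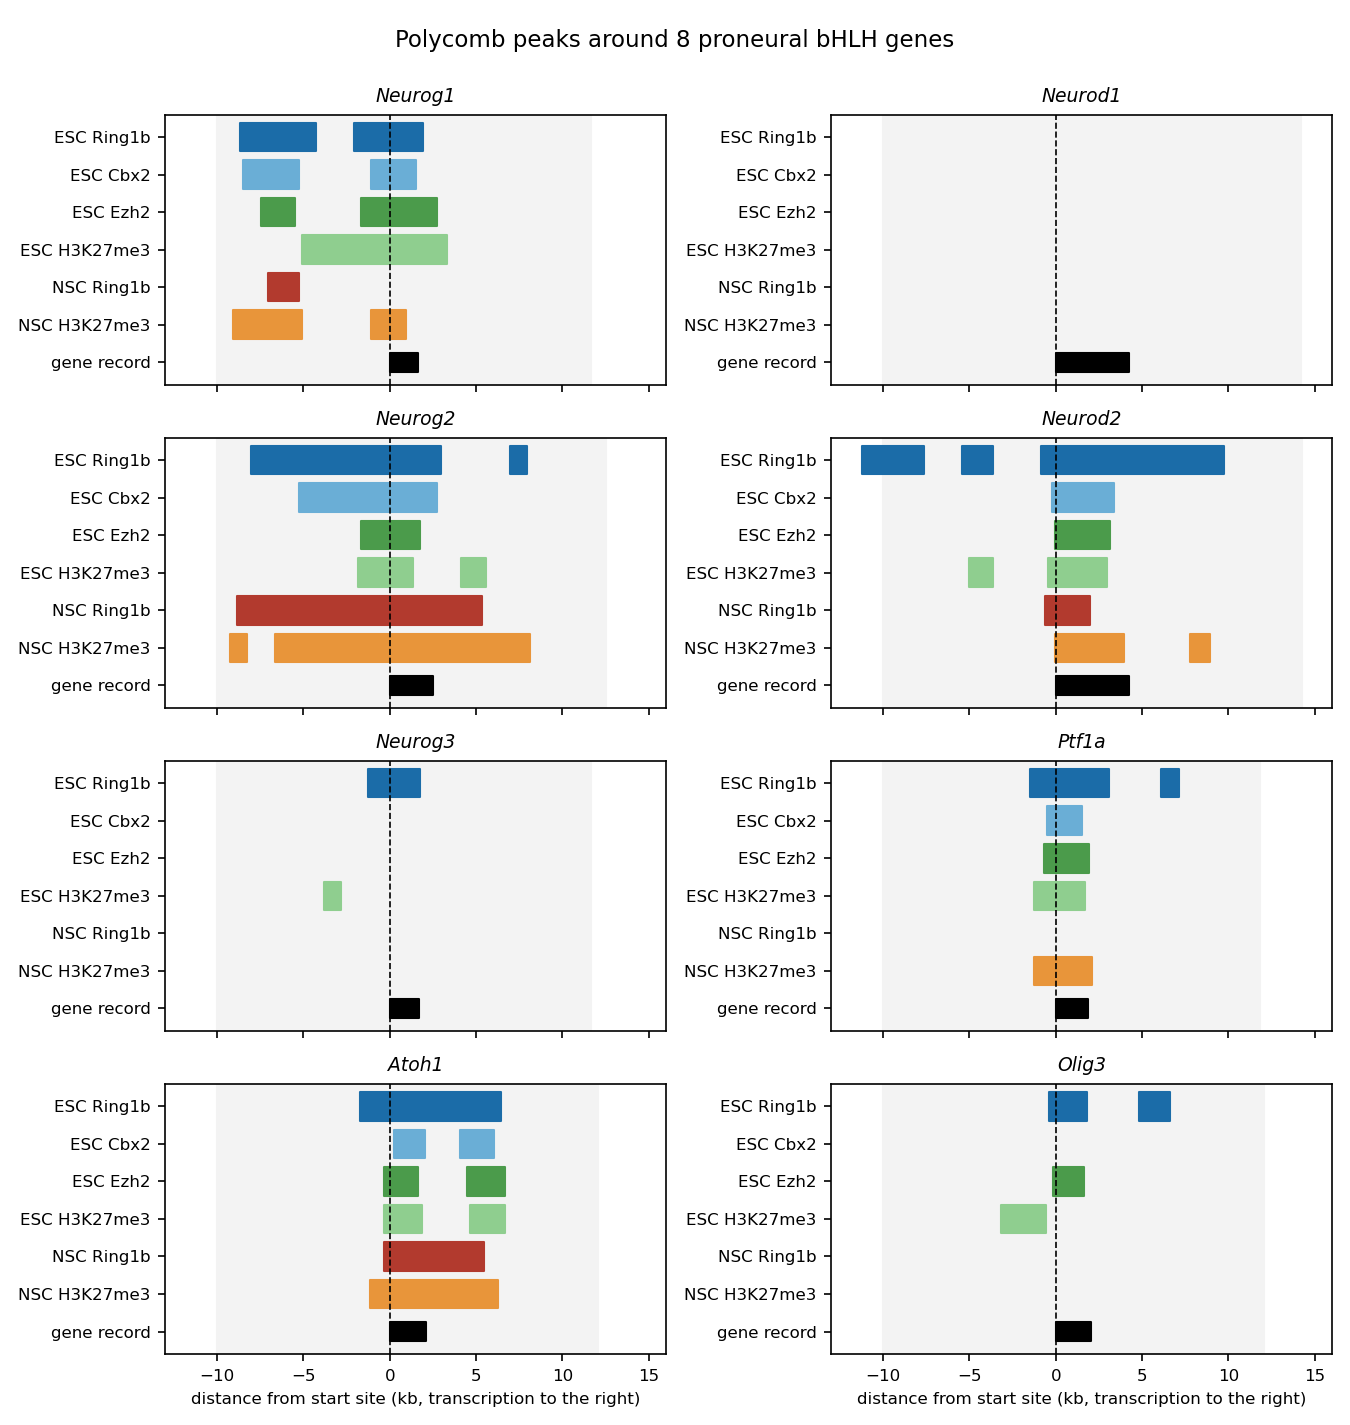
Peaks of the 6 lists around each member, by distance from the start site in kb with transcription to the right. Coloured bars are deposited peaks, the black bar is the gene record, the dashed line the start site and the grey field the window of the gene record plus 10 kb either side. *Neurod1* has no bar in any list, and the *Neurog2* bars of both NSC lists are the widest drawn, at 14.2 and 14.8 kb.

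Of the neurogenins, *Neurog2* (chr3:127336054-127338549, plus strand, 2 exons, ENSMUSG00000027967.7), which promotes excitatory neuron fates in the dorsal forebrain and also acts in the spinal cord, carried the widest domain. In ESCs a Ring1b peak of 11000 bp ran from 8.05 kb upstream to 2.95 kb downstream of its start site. Within it lay a Cbx2 peak of 8000 bp, an Ezh2 peak of 3400 bp and an H3K27me3 peak of 3200 bp. In NSCs the Ring1b peak was 14200 bp wide and the H3K27me3 peak 14800 bp. That H3K27me3 peak was wider than 99.5% of its list, where 8 peaks in all were at least as wide. The NSC Ring1b peak was wider than 97.8% of its list. Peaks covered 53.3% of the *Neurog2* window for ESC Ring1b, 35.6% for Cbx2, 15.1% for Ezh2 and 20.4% for ESC H3K27me3. In NSCs they covered 63.1% for Ring1b and 70.2% for H3K27me3, so both NSC shares were above all 4 ESC shares. At 12 of all genes, *Neurog2* included, the NSC H3K27me3 share was at least this large.

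*Neurog1* (chr13:56351866-56353524, minus strand, 1 exon, ENSMUSG00000048904.4), needed for cranial and some dorsal root sensory neurons, had separate domains at its start site and upstream. At the start site the ESC peaks were 4000 bp wide for Ring1b, 2600 bp for Cbx2 and 4400 bp for Ezh2. The ESC H3K27me3 peak of 8400 bp, wider than 98.5% of its list, ran from 5.08 kb upstream to 3.32 kb downstream. The upstream domain had a Ring1b peak from 8.68 to 4.28 kb before the start site, with a Cbx2 peak of 3200 bp and an Ezh2 peak of 2000 bp inside it. In NSCs the start site kept an H3K27me3 peak of 2000 bp and had no Ring1b peak. The upstream domain had both targets in NSCs, a Ring1b peak of 1800 bp (chr13:56358801-56360600) and an H3K27me3 peak of 4000 bp from 9.08 to 5.08 kb before the start site. Thus the Ring1b peak of *Neurog1* in NSCs lay in the upstream domain alone. No annotated start site lay in this NSC Ring1b peak.

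*Neurog3* (chr10:61595838-61597511, plus strand, 2 exons, ENSMUSG00000044312.3), which specifies endocrine progenitors of the pancreas, had the fewest peaks of the members with any. A Ring1b peak of 3000 bp covered the whole gene record in ESCs, and 13.8% of the window. An H3K27me3 peak of 1000 bp, the smallest width in the list, lay from 3.84 to 2.84 kb upstream and did not overlap the Ring1b peak. No Cbx2, Ezh2 or NSC peak fell in its window. The nearest NSC H3K27me3 peak was 154 kb from the start site and the nearest NSC Ring1b peak 317 kb. The gene 2010107G23Rik overlaps *Neurog3* on the other strand and had its own start site in no list.

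*Atoh1* (chr6:64679140-64681227, plus strand, 1 exon, ENSMUSG00000073043.4) is required for cerebellar granule neurons, inner ear hair cells and secretory cells of the gut. In ESCs its Ring1b peak of 8200 bp ran from 1.74 kb upstream to 6.46 kb downstream of the start site, past the end of the gene. Cbx2, Ezh2 and H3K27me3 each had 2 separate peaks that overlapped this domain, 1 at the gene and 1 further downstream. The downstream Ezh2 and H3K27me3 peaks ended past the Ring1b peak. The downstream peaks lay 4.06 to 6.06 kb after the start site for Cbx2, 4.46 to 6.66 kb for Ezh2 and 4.66 to 6.66 kb for H3K27me3. The Cbx2 peak at the gene began 261 bp after the start site, so this start site counted as outside Cbx2, although Cbx2 covered 86.2% of the gene record. In NSCs Ring1b had a peak of 5800 bp and H3K27me3 a peak of 7400 bp. Both ran from before the start site into the downstream place, to 5.46 kb for Ring1b and 6.26 kb for H3K27me3, short of the ends of the ESC Ezh2 and H3K27me3 peaks there. The H3K27me3 peak was wider than 95.4% of its list, and the Ring1b peak wider than 90.8%. Window shares in ESCs were 37.1% for Ring1b, 17.2% for Cbx2, 19.0% for Ezh2 and 19.0% for H3K27me3. They were 26.3% for Ring1b and 33.5% for H3K27me3 in NSCs.

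The NeuroD genes were unlike each other. *Neurod2* (chr11:98186729-98190962, minus strand, 2 exons, ENSMUSG00000038255.6), which acts in maturing excitatory neurons, had the largest ESC Ring1b share of the members, 60.9% of the window. This came from a peak of 10600 bp over the whole gene and from 2 upstream peaks of 1800 and 3600 bp, the last of which reached past the window. Its Cbx2, Ezh2 and H3K27me3 peaks at the start site were 3600, 3200 and 3400 bp wide. In NSCs the Ring1b peak was 2600 bp wide and covered 10.7% of the window, while the H3K27me3 peak at the start site was 4000 bp wide. Both upstream Ring1b peaks had no NSC peak of either target over them. *Neurod1* (chr2:79292678-79296908, minus strand, 2 exons, ENSMUSG00000034701.8), needed in pancreatic beta cells and in late steps of neuronal differentiation, had no peak of any of the 6 lists in its window. Its nearest ESC peaks were 989 kb away for Ring1b and 210 kb away for Cbx2, and its nearest NSC peaks 2598 kb away for Ring1b and 2597 kb away for H3K27me3. The annotation places the start site of *Cerkl* 34 bp from that of *Neurod1* on the same strand, and the *Cerkl* start site was in no list either. Whether tags could be placed as well there as at the other members was not tested.

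*Ptf1a* (chr2:19367290-19369128, plus strand, 2 exons, ENSMUSG00000026735.2) is needed for the exocrine pancreas and for inhibitory neurons of the cerebellum and dorsal spinal cord. Its start site lay in ESC peaks of 4600 bp for Ring1b, 2000 bp for Cbx2, 2600 bp for Ezh2 and 3000 bp for H3K27me3. In NSCs an H3K27me3 peak of 3400 bp began at the same base as the ESC peak and ended 400 bp further on. No NSC Ring1b peak lay in its window, and the nearest was 743 kb away. The antisense transcript Gm13336 starts 1011 bp from the *Ptf1a* start site, inside the same peaks of 5 lists, so these peaks cannot be assigned to either transcript. A further ESC Ring1b peak of 1000 bp, 6.11 to 7.11 kb downstream, held the start site of the noncoding gene 1810010K12Rik.

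*Olig3* (chr10:19076366-19078412, plus strand, 1 exon, ENSMUSG00000045591.5), which marks dorsal progenitors of the spinal cord and hindbrain, had ESC peaks of different targets side by side. Ring1b (2200 bp) and Ezh2 (1800 bp) covered its start site. The H3K27me3 peak of 2600 bp lay upstream, from 3.17 kb to 566 bp before the start site, and overlapped neither. A second Ring1b peak of 1800 bp lay 4.83 to 6.63 kb downstream without a peak of any other list. Cbx2 and both NSC lists had no peak in the window, and the nearest NSC peaks were 210 kb away for H3K27me3 and 576 kb away for Ring1b.

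**Figure D2:**
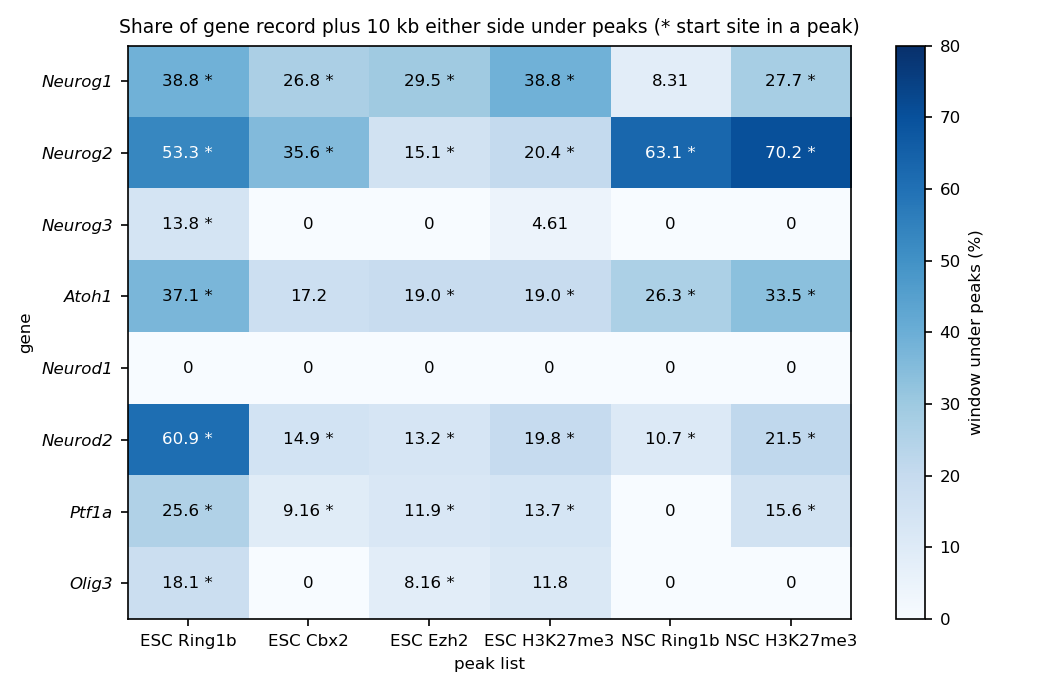
Share of each member's window, in percent, under the peaks of each list, with darker blue for a larger share and an asterisk where the start site lay in a peak. *Neurog2* has the darkest cells in the NSC columns (63.1 and 70.2%), and *Neurod1* is at 0 throughout.

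Over the 8 members the median share of the window under peaks was 31.4% for Ring1b, 16.4% for H3K27me3, 12.6% for Ezh2 and 12.0% for Cbx2 in ESCs. In NSCs it was 4.16% for Ring1b and 18.5% for H3K27me3. The order of the H3K27me3 medians turned with 5 kb either side, at 29.4% in ESCs and 22.9% in NSCs. The ESC Ring1b share was at or above that of each other ESC target in the 7 members with any peak. At *Neurog1* it equalled that of H3K27me3, 38.8%, and at *Neurod1* every list was at 0. How often this order held over all genes was not counted. The ESC Ring1b list also covered the most genome, 7.90 Mb, against 4.91 Mb for H3K27me3, 2.85 Mb for Ezh2 and 2.59 Mb for Cbx2. The part of list size in the order of the targets was not tested.

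The targets overlapped at most members. All 7 Cbx2 peaks and all 8 Ezh2 peaks in the windows overlapped an ESC Ring1b peak, as did 7 of the 10 ESC H3K27me3 peaks. Over the whole lists such an overlap was found for 50.5% of Cbx2, 88.9% of Ezh2 and 72.1% of H3K27me3 peaks, so the members' shares for Ezh2 and H3K27me3 were near those of the lists. Of the 13 ESC Ring1b peaks, 6 overlapped all of Cbx2, Ezh2 and H3K27me3, against 15.9% of the whole Ring1b list. Bases under all 4 ESC lists came to 3000 bp at *Neurog2*, 3000 bp at *Neurod2*, 2800 bp at *Atoh1*, 2600 bp at *Neurog1* and 2000 bp at *Ptf1a*. There were none at *Neurog3*, *Neurod1* or *Olig3*. Bases under all 6 lists remained at *Neurog2* (3000 bp), *Atoh1* (2200 bp) and *Neurod2* (2000 bp). The common segment at *Neurog2* was thus much shorter than the NSC peaks that contained it.

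**Figure D3:**
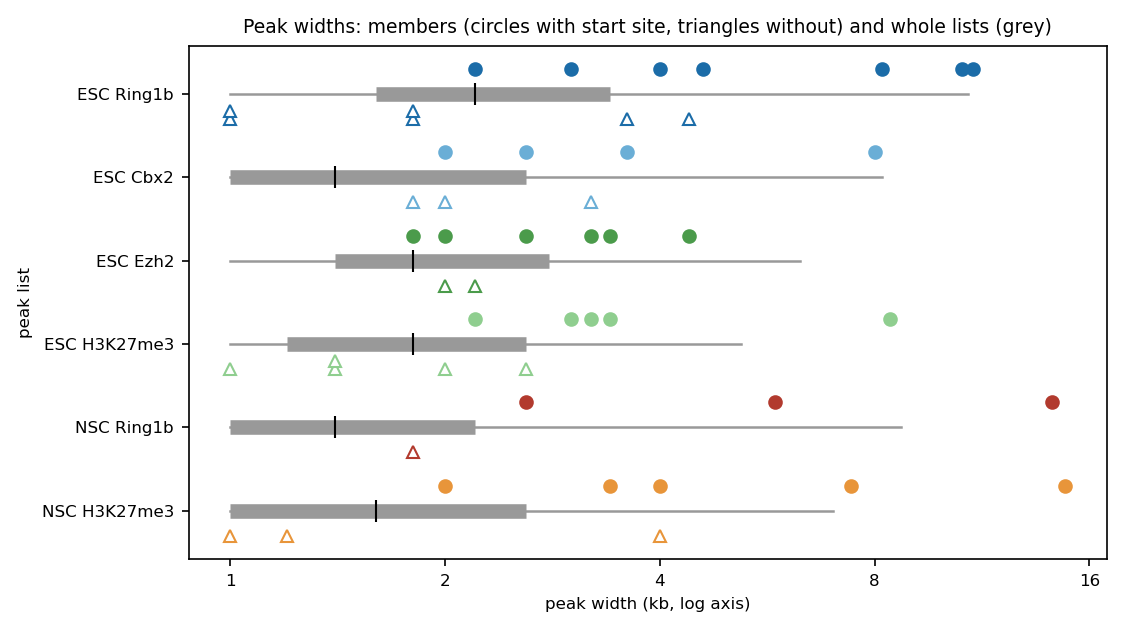
Widths of the 50 member peaks, in kb on a log axis, by list. Filled circles are peaks over a member's start site, open triangles are other peaks in the windows, and for the whole list the thin grey line spans the 5th to 95th percentile, the thick bar the quartiles and the black mark the median. All circles lie at or to the right of the black marks, and the *Neurog2* peaks of 14.2 and 14.8 kb lie beyond the lines of both NSC lists.

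Peaks over start sites were wider than the other peaks in the same windows, at the median, in all 6 lists. A wide peak is more likely to hold a given site, so the way the peaks were divided favours this order. The peaks without a start site numbered only 1 for NSC Ring1b and 2 for Ezh2. In ESC Ring1b the medians were 4600 bp for the 7 peaks with a start site and 1800 bp for the 6 without, beside 2200 bp for the whole list. For NSC H3K27me3 they were 4000 bp for 5 peaks and 1200 bp for 3, beside 1600 bp for the list. All 7 Cbx2, 8 Ezh2 and 4 NSC Ring1b peaks were at least as wide as the median of their lists. So were 9 of 13 ESC Ring1b, 7 of 10 ESC H3K27me3 and 6 of 8 NSC H3K27me3 peaks. Widths came in steps of 200 bp from 1000 bp upwards, as the windows of the peak calling set them.

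The NSC peaks divided the members. Of the 7 members with Ring1b in the window in ESCs, 4 kept a Ring1b peak there in NSCs: *Neurog1*, *Neurog2*, *Atoh1* and *Neurod2*. Among all genes with ESC Ring1b in the window, 22.9% had an NSC Ring1b peak there. *Neurog3*, *Ptf1a* and *Olig3* had none. At the start site itself 3 of 7 members kept Ring1b, since *Neurog1* had its NSC peak upstream, and 16.7% of all genes with Ring1b at the start site in ESCs did so. H3K27me3 was kept in the window by 5 of 7 members, the same 4 and *Ptf1a*, against 29.6% of all genes with ESC H3K27me3 there. *Neurog3* and *Olig3* had no NSC H3K27me3 peak. All 5 members with H3K27me3 over the start site in ESCs also had it there in NSCs, against 25.4% of all such genes. However, 4 of these 5 had the start site in all 4 ESC lists, where NSC H3K27me3 was more frequent. Of the 168 genes of that kind, 69 had the start site in all 6 lists and 31 in all but NSC Ring1b. *Neurog3* and *Olig3* were also the 2 members whose only ESC H3K27me3 peak lay beside the start site and did not overlap Ring1b.

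The bases under peaks changed differently for the 2 targets. Summed over the windows, Ring1b covered 55962 bp in ESCs and 24400 bp in NSCs, of which 21200 bp were common. It covered less in NSCs at 6 members and more at *Neurog2* alone, 14200 bp against 12000 bp. The whole Ring1b list also covered less in NSCs, 3.60 Mb against 7.90 Mb, and these directions were not counted over all genes. At *Neurod2* Ring1b went from 14762 to 2600 bp, so that 17.6% of the ESC bases were kept. At *Neurog1* it went from 8400 to 1800 bp, or 21.4%. At *Atoh1* 70.7% of the ESC Ring1b bases were kept.

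H3K27me3 covered 28600 bp in ESCs and 37800 bp in NSCs, with 16400 bp common and 21400 bp in NSCs alone. It covered more in NSCs at 4 members and less at 3, directions that were not counted over all genes. At *Neurog2* it went from 4600 to 15800 bp, 3.43 times as much, and all ESC bases were kept. At *Atoh1* it went from 4200 to 7400 bp, 1.76 times as much. *Neurod2* (4800 and 5200 bp) and *Ptf1a* (3000 and 3400 bp) differed by 400 bp each, which is 2 steps of the peak calling. At *Neurog1* it went from 8400 to 6000 bp, and 33.3% of the NSC bases had been under the ESC peak. *Neurog2* accounted for 11200 of the 21400 bp that were under H3K27me3 peaks in NSCs alone. Its gain of 11200 bp was larger than the rise of the sum. Without *Neurog2*, the other members together thus had fewer bases under H3K27me3 peaks in NSCs than in ESCs. Since the lists hold neither counts nor heights, a wider peak and a peak split or joined at the threshold cannot be told apart. The whole lists covered less in NSCs for both targets, 3.60 Mb for Ring1b and 3.92 Mb for H3K27me3.

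**Figure D4:**
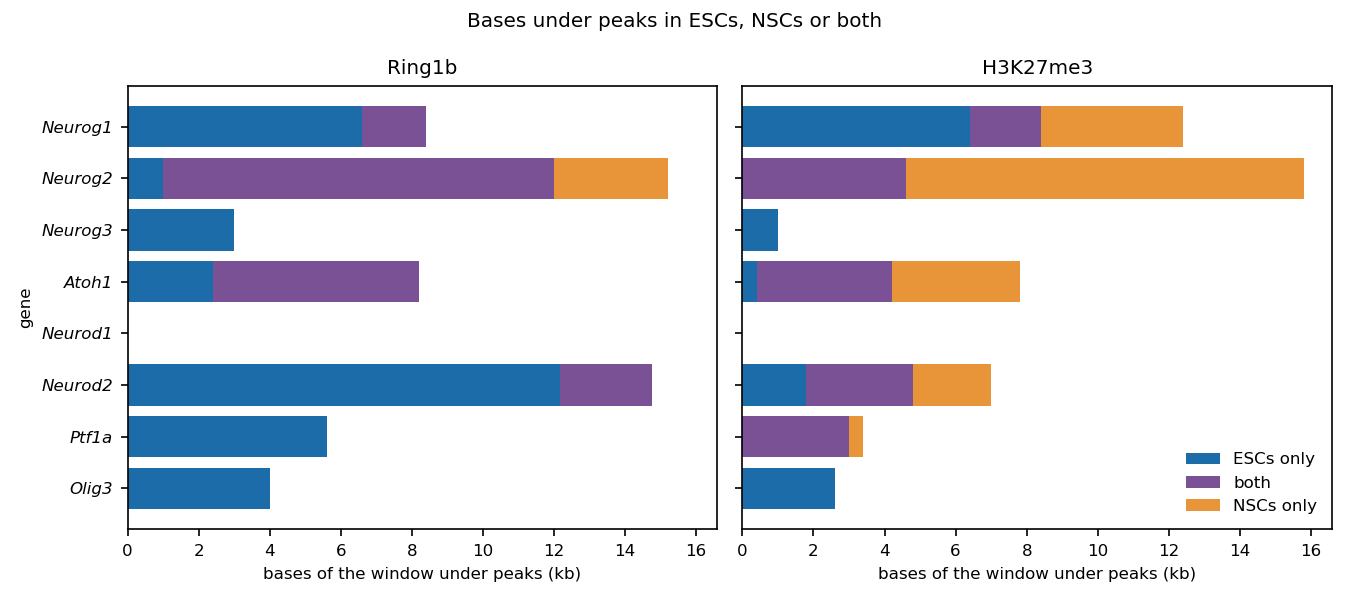
Bases of each member's window under Ring1b peaks (left) and H3K27me3 peaks (right), in kb, divided into bases under peaks in ESCs alone (blue), in both cell types (purple) and in NSCs alone (orange). Orange is the longest segment of the *Neurog2* H3K27me3 bar (11200 bp), and blue makes up the whole Ring1b bars of *Neurog3*, *Ptf1a* and *Olig3*.

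In NSCs the 2 targets lay together where both were present. H3K27me3 peaks covered all NSC Ring1b bases at *Neurog1* and *Atoh1*, 88.7% at *Neurog2* and 76.9% at *Neurod2*. The bases under both were 12600 bp at *Neurog2*, 5800 bp at *Atoh1*, 2000 bp at *Neurod2* and 1800 bp at *Neurog1*. *Ptf1a* was the member with H3K27me3 and no Ring1b peak in NSCs. The overlap of Ring1b with H3K27me3 was not computed over the whole NSC lists. Among all genes 389 had the start site in NSC Ring1b and 140 had it in both NSC lists.

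Base composition around the start sites ranged widely. In the 1000 bases centred on the start site the number of CpGs was 89 at *Neurog1*, 84 at *Neurog2*, 78 at *Ptf1a* and 61 at *Atoh1*. It was 49 at *Neurod1*, 43 at *Neurog3*, 40 at *Neurod2* and 34 at *Olig3*. The median was 41.0 over all genes and 73.0 over the 1571 genes with the start site in an ESC Ring1b peak. In these 1000 bases *Neurod1*, without any peak, had more CpGs than *Neurod2*, which had peaks of all 6 lists over its start site. The observed-over-expected CpG ratio was highest at *Neurog2*, 0.852, and lowest at *Neurod2*, 0.455, against 0.549 at the median gene. Both genes with the start site in all 6 lists thus stood at the ends of this range. The *Neurod2* peaks over the start site were wider than these 1000 bases. In ESCs they held 71.9 CpGs per kb for Cbx2, 75.3 for Ezh2 and 73.5 for H3K27me3, the highest of the members' peaks in each list. The ESC Ring1b peak there held 36.9 per kb, and the NSC peaks 62.7 for Ring1b and 69.2 for H3K27me3.

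The E-box, CANNTG on both strands, was counted in the 300 bases from 250 before to 50 after the start site. It was present at 5 of the 8 members and in 69.6% of all promoters of this length. *Neurod1* and *Neurod2* held 3 each, and *Neurog1*, *Neurog3* and *Olig3* held 1 each. CAGCTG, a form of the E-box and so included in these counts, was found at *Neurog3* alone and in 15.2% of all promoters. CAGATG, another form, was found on either strand at *Neurod1* and *Neurod2* and in 15.1% of all promoters. These matches are letters in a stretch of sequence and not sites of binding.

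Genes of related function were counted in the same way. Of 19 other bHLH genes of tissue-specific expression, including *Olig1*, *Olig2*, *Twist1* and *Hand2*, 10 had the start site in an ESC Ring1b peak, 8 in Ezh2, 7 in H3K27me3 and 5 in Cbx2. *Olig2*, *Bhlhe23* and *Tal1* had it in all 4 ESC lists. In NSCs 4 had it in Ring1b (*Bhlhe22*, *Tcf15*, *Hand2* and *Tal1*) and 5 in H3K27me3 (these and *Bhlhe23*). Of those with the start site in ESC H3K27me3, 3 of 7 also had it in NSC H3K27me3, beside 5 of 5 proneural members, and for Ring1b the counts were 3 of 10 and 3 of 7. The closest relatives of *Neurod1* on this list, *Neurod4* and *Neurod6*, had the start site in no list, like *Neurod1* and unlike *Neurod2*. The same held for *Atoh7*, a relative of *Atoh1* that acts in the retina. Both NSC window shares were above all 4 ESC shares at *Tal1* and *Tcf15*, as at *Neurog2*, but not at *Bhlhe22* or *Hand2*. At *Tal1* they were 34.5% for Ring1b and 37.4% for H3K27me3. *Hand2* had larger NSC shares than *Neurog2*, 94.1% for Ring1b and 77.0% for H3K27me3.

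Genes for partners and opponents of the proneural factors had lower shares of start sites in peaks than the members. By any peak in the window the ESC Ring1b shares were closer, with 10 of 13 HES, HEY and ID genes (76.9%) and 5 of 9 Notch genes (55.6%) against 87.5% of the members. The 3 E protein genes, *Tcf3*, *Tcf4* and *Tcf12*, whose products pair with proneural factors, had no peak of any list in their windows. Of 13 HES, HEY and ID genes, most of whose products oppose proneural activity, 5 had the start site in ESC Ring1b, 1 in Ezh2, 1 in H3K27me3 and 0 in Cbx2. In NSCs *Hes1* had it in Ring1b and *Hes2* in H3K27me3. Of 9 Notch ligand and receptor genes 2 had it in ESC Ring1b, and *Dll4* and *Jag2* had it in NSC H3K27me3.

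**Figure D5:**
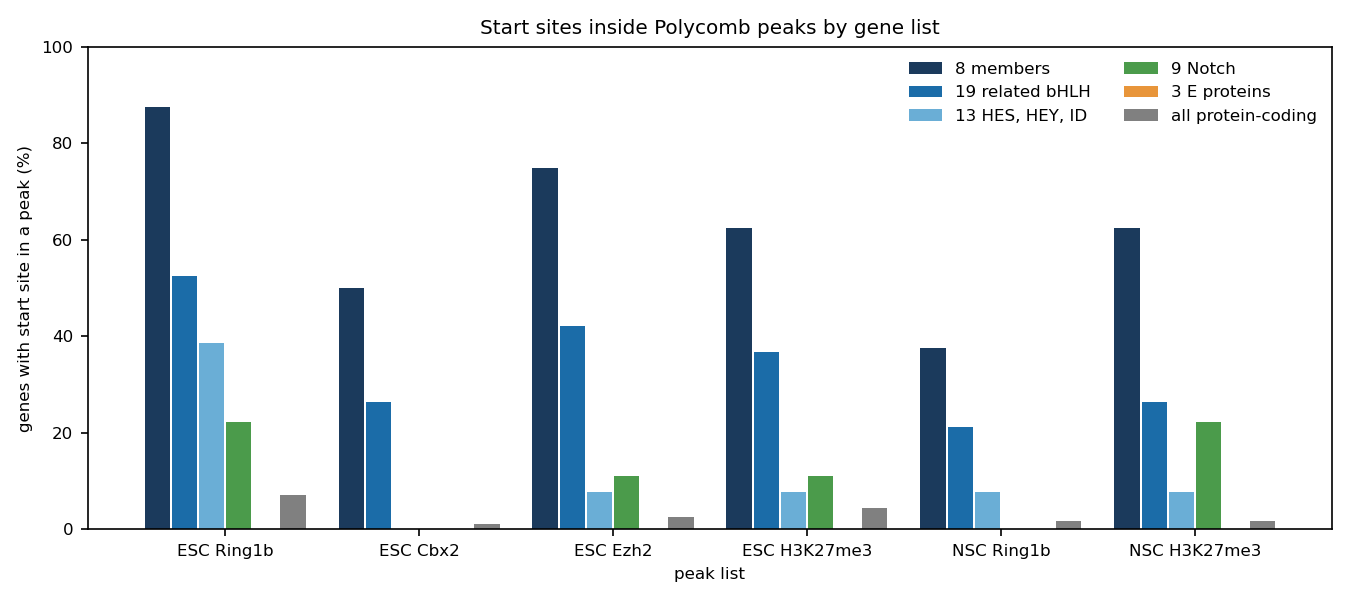
Percent of genes with the start site in a peak of each list, for the 8 members, 4 lists of related genes and all protein-coding genes. The members' bars are the tallest in every list, at 87.5% for ESC Ring1b and 37.5% for NSC Ring1b, and the E protein bars are at 0.

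The lists do not measure expression, so the identity of the cells could not be checked by marker levels. Among 8 ESC marker genes the ESC lists held 0 start sites, and NSC H3K27me3 held that of *Utf1*. Among the 8 NSC marker genes matched by name, 4 start sites lay in ESC Ring1b peaks (*Nes*, *Pax6*, *Olig2* and *Msi1*) and 0 in NSC Ring1b peaks, and *Sox2* lay in an NSC H3K27me3 peak. Start sites of the 3 neuron and 2 astrocyte markers lay in no list. Of the 2 mesoderm markers, *T* had its start site in NSC H3K27me3 and *Kdr* in no NSC list. Of the 2 endoderm markers, *Sox17* had its start site in NSC H3K27me3 and *Gata4* in no list.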

How the data were processed

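ChIP-seq peak lists of 6 libraries were analysed. Cells had been fixed in 1% formaldehyde for 10 min and chromatin sheared to 250 bp on average. Only the study's methods state a prior EGS crosslink for Ring1b. The authors deposited the mm9 coordinates of each peak and no count, height, score or p-value. Per the study's methods they counted tags in sliding windows, judged the excess over input with a negative binomial model, tuned its size parameter by eye, and joined nearby enriched windows. The methods name Bowtie as aligner, whereas the submitters' processing notes name BWA. How tags with several alignments were treated is not given in the sources used here for the peak calling. The coordinates carry no depth, so where no peak is listed the target may still be present below the authors' threshold.

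Samples were grouped by their labels. An overlap was 1 bp or more. The work was done in Python 3.11.15 with numpy 2.4.6, and plots were drawn with matplotlib 3.10.9, after the overlap code had been tested on simulated data. Gene records came from the GENCODE annotation of NCBIM37 (mm9), which also gave the sequences. RefSeq start sites, given for GRCm38, were placed in mm9 by exact match of their promoter sequence for 8 of 8 members. A member kept a target when an NSC peak of it lay in a window that held an ESC peak of it, and lost it otherwise. All 8 members were named. Related genes were named where their start site lay in all 4 ESC lists or in an NSC list, and a few as examples of their list or as relatives of *Neurod1*, chosen after their values were seen. A gene of the related bHLH list is not reported here and was left out of its counts. The members and gene lists were chosen with earlier results of these data known. Alternatives changed the window, the start site, the width of the peaks and the merging of peaks. No test was made, because a group held 1 library.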

Additional observations from a re-analysis of the deposited data

How the results depend on the processing

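Counts of members with the start site in a peak stayed within 1.5 times of the reported value in 30 of 30 comparisons, which include RefSeq start sites, an alternative chosen after the data had been seen. Counts of members with a peak in the window did so in 30 of 30, and counts of members that kept Ring1b, lost Ring1b or kept H3K27me3 in 5 of 5 each. Shares of all genes did so in 21 of 24 comparisons for the start site and 24 of 30 for the window, and median covered shares in 13 of 30. With 8 members this rule is coarse, and some counts of members changed within it. Members with ESC H3K27me3 in the window fell from 7 to 5 with the gene record alone. Start sites within 1 kb of a peak gave 5 members instead of 4 for Cbx2 and 6 instead of 5 for ESC H3K27me3. Peaks of at least 2 kb gave 5 start sites instead of 6 for Ezh2. Some alternatives could change the start-site counts of members little. *Neurod1* alone had more than 1 annotated transcript start, and RefSeq start sites lay at most 115 bp from those used. *Neurog1* moved from the members that kept Ring1b to those that lost it with the gene record alone, with start sites, and with peaks of at least 2 kb, leaving 3 that kept it. The number that lost H3K27me3 was 0 with the gene record alone and with start sites, where *Neurog3* and *Olig3* had no ESC peak to lose, and 1 (*Olig3*) with peaks of at least 2 kb. The median covered share with the gene record alone was 100% for ESC Ring1b, 80.8% for Cbx2, 77.1% for Ezh2, 62.0% for ESC H3K27me3, 0% for NSC Ring1b and 74.6% for NSC H3K27me3. With 5 kb either side it was 19.6% for Cbx2, 22.2% for Ezh2, 29.4% for ESC H3K27me3, 0% for NSC Ring1b and 22.9% for NSC H3K27me3, so that ESC H3K27me3 was above NSC H3K27me3. With 20 kb it was 18.8% for ESC Ring1b, 6.46% for Cbx2, 6.72% for Ezh2, 8.57% for ESC H3K27me3, 2.16% for NSC Ring1b and 9.94% for NSC H3K27me3. With peaks of at least 2 kb it was 0% for NSC Ring1b. The same width minimum lowered the share of all genes with a peak in the window to 7.40% for ESC Ring1b, 1.53% for Cbx2, 2.71% for Ezh2, 4.67% for ESC H3K27me3, 1.60% for NSC Ring1b and 2.26% for NSC H3K27me3, and the share with the start site in a peak to 1.63% for Ezh2, 2.55% for ESC H3K27me3 and 0.904% for NSC Ring1b. These shares depend on the window and the width by construction. With 1 library per group no library could be left out, and the depth behind a missing peak is unknown.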
